A study of Arabidopsis thaliana with 12 samples.

Results

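Signal of 3 genes for chloroplast carbon enzymes was followed in Arabidopsis wild type (WT) and an aap6 mutant. The genes are SBPASE (AT3G55800), PRK (AT1G32060) and PPDK (AT4G15530). They were chosen as the probes that the platform annotation ties to exactly 1 gene, that gene being one of these. Each gene had 1 such probe, so 3 of 3439 probes on the array, and 3 of the 692 probes with a single gene name, are described. Both genotypes are of the ecotype Wassilevskija, and total RNA was hybridised. The mutant lacks AAP6, an amino acid permease that the labels place in xylem parenchyma. Each genotype has 6 arrays, and the labels number these 1 to 6. The sources used here do not give the age or tissue of the plants, how they were grown, the kind of mutant allele or any treatment.

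The Calvin cycle fixes carbon dioxide in the chloroplast stroma and regenerates its acceptor, ribulose bisphosphate. SBPASE encodes sedoheptulose-bisphosphatase, an enzyme of that regeneration phase found in the cycle and not in the related reactions of respiration. PRK encodes phosphoribulokinase, which makes the acceptor itself in the last step of regeneration. Both enzymes are switched on in the light through thioredoxin, and PRK is held inactive in the dark in a complex with the small protein CP12 and glyceraldehyde-phosphate dehydrogenase. PPDK encodes pyruvate orthophosphate dikinase, which converts pyruvate to phosphoenolpyruvate. In C4 leaves that reaction feeds carbon fixation, whereas Arabidopsis is a C3 plant. There the gene gives a chloroplast and a cytosolic form from separate promoters, and the enzyme is known for a part in moving nitrogen out of ageing leaves by way of amino acids.

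The deposited signals are linear, start at 0 and reach an upper bound near 100, and their background correction and scaling are not known. Array medians were 0.142 to 0.164 in WT and 0.234 to 0.265 in aap6, and the share of probes listed at exactly 0 was 9.71% to 16.0% among WT arrays and 6.86% to 9.31% among aap6 arrays. Neighbouring numbers (1 and 2, 3 and 4, 5 and 6) of a genotype were much alike on the deposited scale. Their correlations across probes were 0.993 to 0.998, against 0.955 to 0.980 for other arrays of a genotype. On the log2 scale used for the fits these ranges overlapped, at 0.912 to 0.970 within pairs against 0.892 to 0.947. Each such pair was averaged and counted as 1 sample, n = 3 per genotype. Whether the numbered samples came from separate plants is not stated, so the p-values reflect spread among these samples that may be purely technical, and the number of arrays limits the precision. AAP6 had no probe of its own and could not be used to check the labels. Of 11 fixed markers of photosynthetic leaf cells 3 had a probe of their own, LHB1B2, PSAN and PSBW. They stood at or above the 97.1th percentile of probes in every array. None of 8 root markers and none of 6 markers of xylem parenchyma and vascular tissue had one.

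PPDK was the member with the clearest separation of the genotypes. Its deposited signal was 0.153, 0.0605, 0.234, 0.216, 0.189 and 0.156 in WT arrays 1 to 6. In aap6 arrays 1 to 6 it was 0.404, 0.327, 0.481, 0.599, 0.471 and 0.437. Every aap6 array lay above every WT array, and WT array 2 was the lowest of all. The mean was 0.168 ± 0.0593 (SD, n = 3) in WT and 0.453 ± 0.0871 in aap6, or 2.70-fold higher in aap6. In whole-plant or tissue RNA, more cells of a type and more RNA per cell cannot be told apart. Such a gap without overlap, with aap6 higher, was found for 25.8% of the 2579 probes tested, since most signals were higher in aap6 as deposited. Ranked within its own array, PPDK stood at the 30.0th to 61.7th percentile of probes in WT and at the 60.9th to 76.8th in aap6. On that scale the genotypes overlapped by WT array 3 and aap6 array 2, and 15.1% of probes tested did not overlap.

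**Figure D1:**
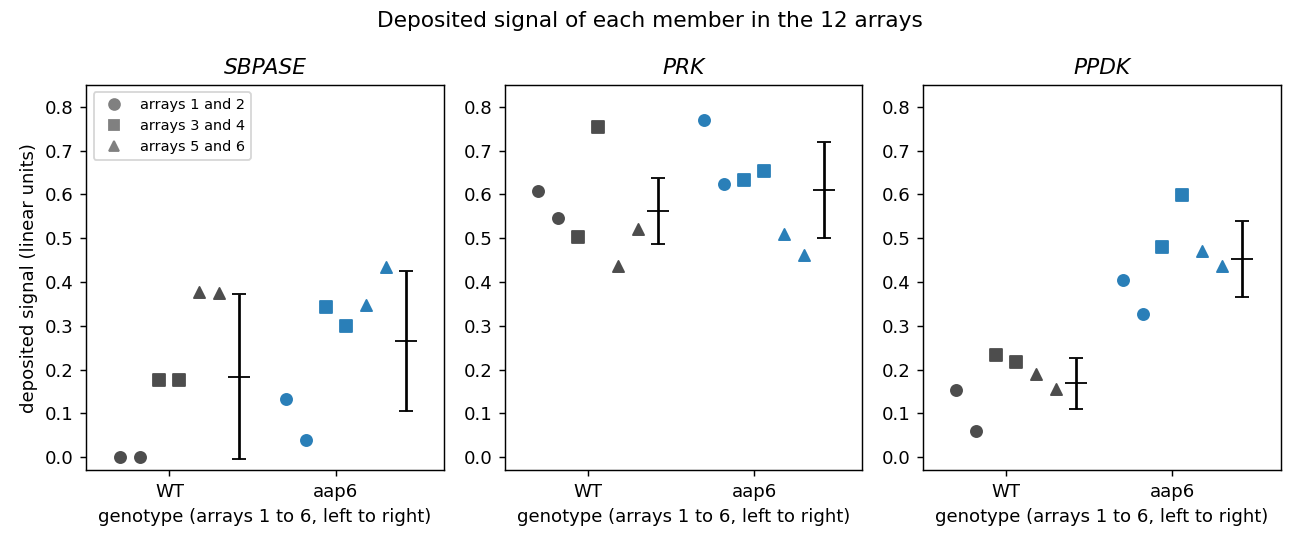
Deposited signal (linear units) of SBPASE, PRK and PPDK in each of 6 WT and 6 aap6 arrays, with symbols for array numbers 1 and 2, 3 and 4, and 5 and 6, and a bar for the mean ± SD of the 3 averaged samples. PPDK separates the genotypes, PRK does not, and SBPASE is lowest in arrays 1 and 2 of both genotypes.

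Signals were quantile normalized, raised to a floor of 0.0505, the 10th percentile of values above 0, and compared on the log2 scale with limma. None of the 3 genes passed an adjusted p of 0.05, a threshold that 8.88% of the 2579 probes passed. The mean log2 signal of PPDK was -2.27 ± 0.45 (SD, n = 3) in WT and -1.41 ± 0.25 in aap6. The log2 change, aap6 minus WT, was 0.86 ± 0.27 (SE), with a 95% interval of 0.24 to 1.48 and a limma adjusted p of 0.0826. The 3 averaged samples of one genotype did not overlap those of the other, and how many of all probes had such a gap was not counted. An exact permutation test over the 20 arrangements of the 3 and 3 samples gave p = 0.1 (two-sided), the smallest it can give.

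Arrays of the same number deviated together across the genotypes, so the comparison was also made within numbers. After quantile normalization the log2 change of PPDK was 1.1 in arrays 1 and 2, 0.70 in arrays 3 and 4, and 0.78 in arrays 5 and 6. PPDK was thus higher in aap6 in 3 of 3, and how many of all probes were so was not counted. With these pairs as a block PPDK rose by 0.86 ± 0.16 (SE) and passed (limma adjusted p = 0.0238, 95% interval 0.47 to 1.25), as did 18% of all probes. With the 12 arrays counted as 12 samples PPDK also passed (limma adjusted p = 0.0151), as did 30.4% of probes. With the 6 numbers as a block over 12 arrays it passed among 40.6% of probes (limma adjusted p = 0.00263). With the averaged pair as a random effect it did not (limma adjusted p = 0.0837), and 13.9% of probes passed.

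Scaling moved the size of the PPDK difference. The median log2 change of all probes tested was -0.03 after quantile normalization, 0.50 as deposited, -0.22 with arrays centred on their medians and 0.04 with arrays divided by their 75th percentile. The change of PPDK was 1.53 as deposited (limma adjusted p = 0.0104, with 34.9% of probes called) and 0.80 when median centred (0.0794, 26.6%). With the block of pairs both passed, at limma adjusted p-values of 0.00316 and 0.0224, in settings that called 47% and 40.1% of probes. Divided by the 75th percentile it was 1.06 (limma adjusted p = 0.0486, with 19% of probes called). Taken above the median change of all probes, these values were 0.89 after quantile normalization, 1.03 as deposited, 1.02 median centred and 1.02 by the 75th percentile. PPDK thus stood above the median probe under the 4 scalings, while its call went either way. Median centring and division by the 75th percentile multiply each array by a constant, which moves all probes above the floor alike. The likeness of the as deposited, median centred and 75th percentile values was therefore fixed in advance. Only the quantile normalized value is a separate comparison. In the quantile normalized comparison 92.3% of probes tested had a change no larger than that of PPDK.

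**Figure D2:**
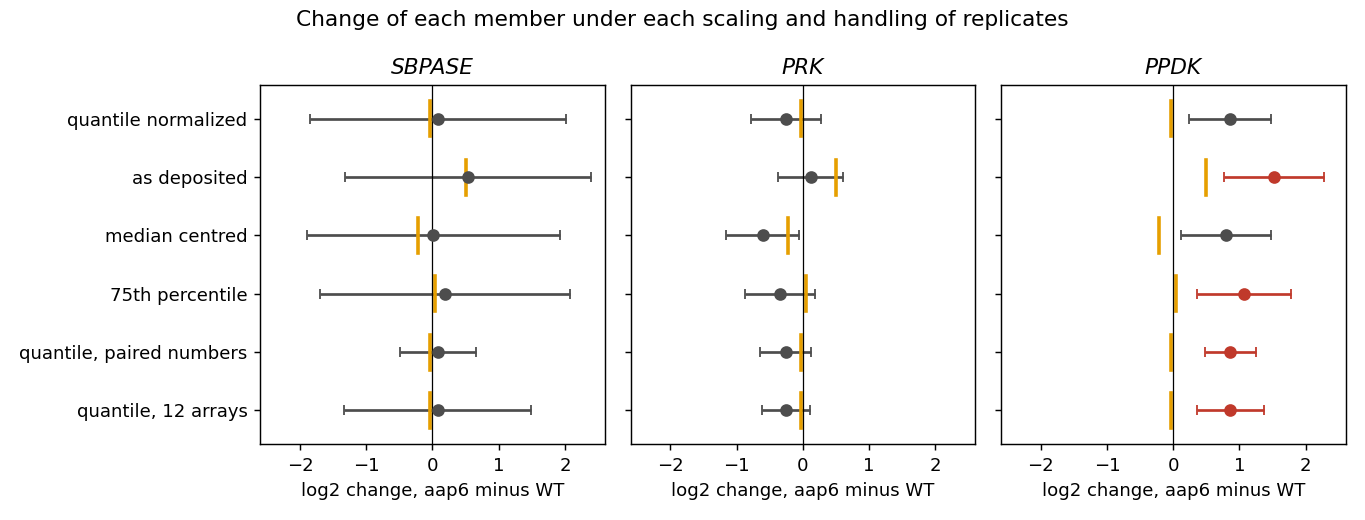
Log2 change, aap6 minus WT, of SBPASE, PRK and PPDK with 95% intervals under 6 combinations of scaling and handling of replicates. Red marks a limma adjusted p under 0.05, and the orange line is the median change of all probes under that setting. The PPDK interval lies above 0 in all 6, and the SBPASE interval is narrowest with paired numbers.

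PRK, the kinase that makes the carbon dioxide acceptor, showed a small difference whose direction depended on the scaling. Its deposited signal was 0.608, 0.546, 0.502, 0.754, 0.437 and 0.521 in WT arrays 1 to 6. In aap6 arrays 1 to 6 it was 0.771, 0.624, 0.633, 0.654, 0.511 and 0.462. The genotypes overlapped over most of their range, and no array was at or near the floor. The mean was 0.561 ± 0.0758 (SD, n = 3) in WT and 0.609 ± 0.110 in aap6. After quantile normalization the log2 change was -0.25 ± 0.23 (SE), with a 95% interval of -0.78 to 0.27 (limma adjusted p = 0.513). An exact permutation test over the averaged samples gave p = 0.4 (two-sided). The change was 0.12 as deposited, -0.34 by the 75th percentile and -0.61 median centred, and none of these passed in limma.

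Relative to the median change of all probes, the change of PRK was negative under each scaling. It was -0.22 after quantile normalization, -0.38 as deposited, -0.39 median centred and -0.39 by the 75th percentile. The values as deposited, median centred and by the 75th percentile had to be alike, since these scalings differ by a constant per array. A change as low as that of PRK or lower was found for 32.0% of probes tested after quantile normalization and for 26.9% as deposited. By array number the log2 change after quantile normalization was -0.04, -0.29 and -0.44 in arrays 1 and 2, 3 and 4, and 5 and 6. As deposited, the averaged PRK signal was instead higher in aap6 in 3 of 3 numbers, so the direction within numbers depends on the scaling. With the pairs as a block the quantile normalized change did not pass (limma adjusted p = 0.277). Median centred with the same block PRK fell by 0.61 on the log2 scale and passed (limma adjusted p = 0.0276), a setting that called 40.1% of all probes. Arrays 5 and 6 held the lowest averaged PRK signal in both genotypes. Without aap6 arrays 5 and 6 the change of PRK was -0.06, and without aap6 arrays 1 and 2 it was -0.41.

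SBPASE differed more between array numbers than between genotypes. Its deposited signal was 0, 0, 0.176, 0.176, 0.376 and 0.375 in WT arrays 1 to 6. In aap6 arrays 1 to 6 it was 0.132, 0.0388, 0.342, 0.299, 0.348 and 0.434. Arrays 1 and 2 were the lowest of each genotype, WT arrays 1 and 2 were listed at exactly 0, and aap6 array 2 lay below the floor. These were the only 3 of the 36 values of the 3 genes below the floor. The same pattern appeared in the rank within an array. SBPASE stood between the 7.68th and 32.0th percentile in the 4 arrays numbered 1 and 2, and between the 53.7th and 73.5th in the other 8.

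WT arrays 1 and 2 also had the most zeros of all arrays, 550 and 527 probes. Among probes tested, 215 of 2579 were listed at 0 in at least 1 array, and 8 were listed at 0 in WT arrays 1 and 2 and in no other, SBPASE among them. The part of these zeros in the SBPASE values was not tested, and a 0 in this table need not mean that the transcript was missing.

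The comparison of genotypes was accordingly imprecise for SBPASE. Its mean log2 signal after quantile normalization and flooring was -2.55 ± 1.60 (SD, n = 3) in WT and -2.46 ± 1.11 in aap6. The log2 change was 0.08 ± 0.83 (SE), with a 95% interval of -1.85 to 2.01 (limma adjusted p = 0.963). An exact permutation test over the averaged samples gave p = 0.9 (two-sided). With array numbers as a block the interval narrowed to -0.49 to 0.65 (limma adjusted p = 0.821). By array number the log2 change after quantile normalization was 0.57 in arrays 1 and 2, 0.16 in arrays 3 and 4, and -0.49 in arrays 5 and 6. In arrays 1 and 2 both WT arrays and aap6 array 2 stood at the floor, so that change rests on aap6 array 1. As deposited, the averaged SBPASE signal was higher in aap6 in 3 of 3 numbers, by 0.0856, 0.145 and 0.0150 signal units, so the mixed directions depend on the scaling. How many of all probes were so was not counted. As deposited, 52.2% of probes tested had a log2 change no larger than that of SBPASE. The log2 change was 0.54 as deposited, 0.19 by the 75th percentile and 0.02 median centred, and none passed in limma. Above the median change of all probes these were 0.04, 0.15 and 0.24, against 0.11 after quantile normalization. As deposited with the block the interval was 0.03 to 1.04 (limma adjusted p = 0.0786, with 47% of probes called). Without WT arrays 1 and 2 the change was -0.80, and without WT arrays 5 and 6 it was 0.78, and neither passed in limma.

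The variation over the 12 arrays was divided into a part between array numbers 1 and 2, 3 and 4, and 5 and 6, a part between genotypes, and a remainder. For SBPASE 91.6% of the sum of squares of log2 signal lay between array numbers and 0.126% between genotypes. PRK had 51.5% between numbers and 18.5% between genotypes. PPDK had the reverse order, with 24.1% between numbers and 54.9% between genotypes. Over all probes tested the median shares were 23.4% and 22.8%. The share of SBPASE between numbers was at least as large as that of 99.5% of probes, whereas that of PPDK was near the middle of all probes. The share of PPDK between genotypes was at least as large as that of 78.4% of probes. The SBPASE share between numbers was 82.1% with the lower floor and 70.0% without arrays 1 and 2 of both genotypes. These shares describe a pattern seen in the values and carry no test.

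**Figure D3:**
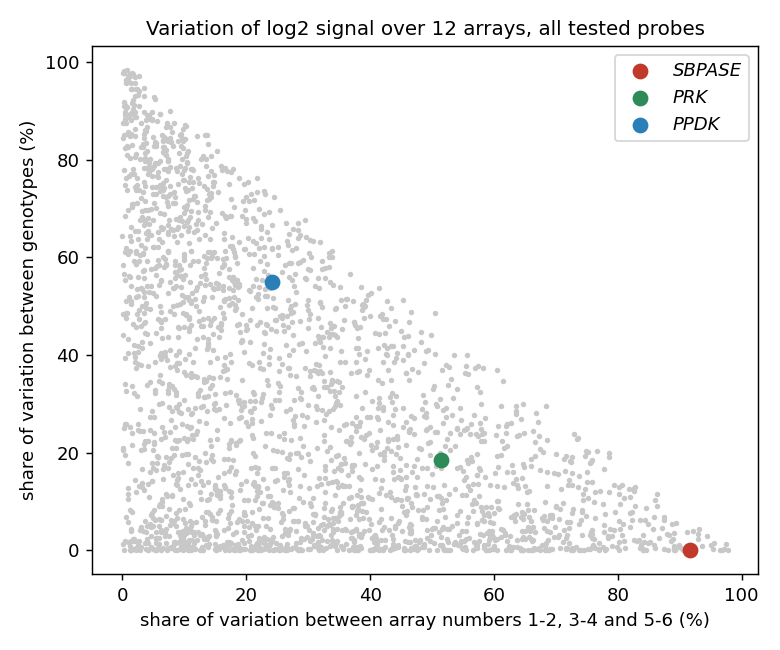
Share (%) of the variation of log2 signal over 12 arrays that lies between array numbers 1 and 2, 3 and 4, and 5 and 6 (horizontal axis) and between genotypes (vertical axis), with each tested probe as a grey point. SBPASE lies at 91.6% and 0.126%, PRK at 51.5% and 18.5%, and PPDK at 24.1% and 54.9%.

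A ratio of signals within one array is not moved by multiplying that array by a constant, so unequal changes of the 3 genes were compared through ratios of the deposited signals, raised to the floor. Quantile normalization is no such constant and does move the ratio. A shift between genotypes that differs with brightness would move it too. As deposited the median change of all probes was 0.50, while the bright leaf markers PSAN, LHB1B2 and PSBW changed by -0.49, -0.29 and -0.03. The mean WT signal was 0.168 for PPDK and 0.561 for PRK. Whether the ratios moved with brightness was not tested. The log2 ratio of PPDK to PRK was -1.84 ± 0.65 (SD, n = 3) in WT and -0.43 ± 0.44 in aap6, a difference of 1.41, or 2.65-fold. After quantile normalization the difference was 1.12, or 2.17-fold. There the averaged samples did not overlap, but the single arrays did, with WT array 3 above aap6 arrays 1 and 2. For the deposited ratio neither the averaged samples nor the single arrays of the genotypes overlapped. How often ratios of other probes show such a gap was not counted. The exact permutation test over 20 arrangements gave p = 0.1 (two-sided), the smallest possible, and 0.3 after adjustment over the 3 ratios. Over 12 arrays counted as samples the exact permutation test gave an adjusted p of 0.00649. Leaving out single arrays moved the difference between 1.21 and 1.60.

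The ratios with SBPASE overlapped between the genotypes. The log2 ratio of PPDK to SBPASE was 0.99 higher in aap6 and that of SBPASE to PRK 0.42 higher. Compared within array numbers, both averaged ratios were higher in aap6 in 3 of 3, and how often ratios of other probes were so was not counted. For SBPASE to PRK, aap6 array 5 (-0.55) lay below WT arrays 5 (-0.22) and 6 (-0.47). The differences in arrays 1 and 2, 3 and 4, and 5 and 6 were 1.22, 0.39 and 1.35 for PPDK to SBPASE and 0.43, 0.80 and 0.02 for SBPASE to PRK. The exact permutation tests, adjusted over the 3 ratios, gave 0.7 for each. With 3 pairs an exact test of sign flips cannot go below p = 0.25 (two-sided), the value of each. These ratios carry the floored SBPASE values of WT arrays 1 and 2 and aap6 array 2. With the lower floor, at the 2nd percentile of values above 0, the differences were 0.38 and 1.03.

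**Figure D4:**
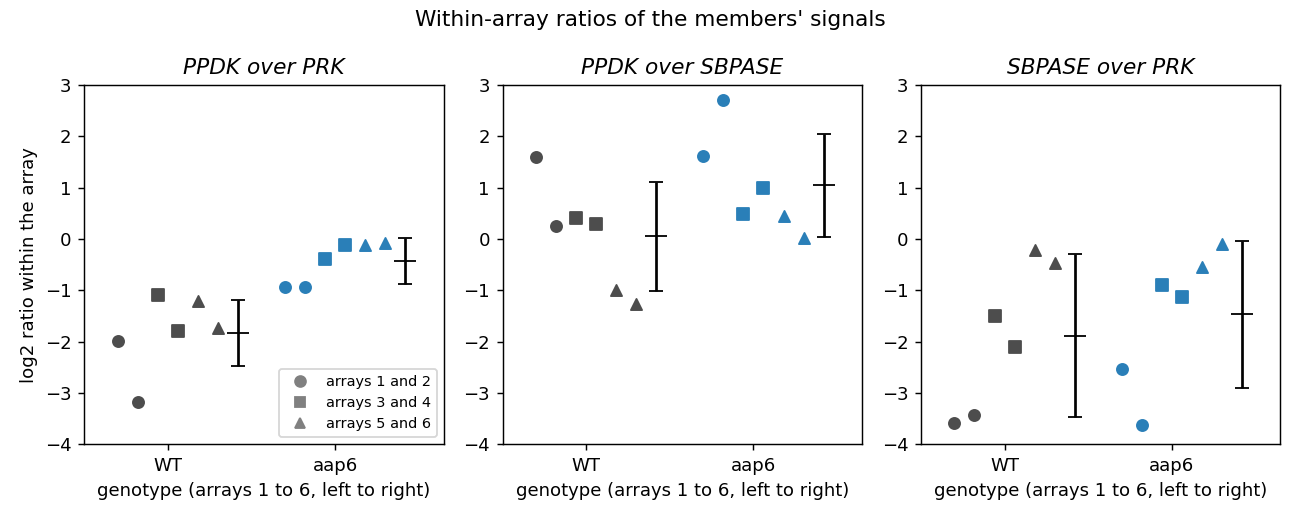
Log2 ratio of deposited signals within each array for PPDK over PRK, PPDK over SBPASE and SBPASE over PRK, by genotype and array number, with a bar for the mean ± SD of the 3 averaged samples. The 6 aap6 arrays lie above the 6 WT arrays for PPDK over PRK and overlap them in the other ratios.

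Few other genes of these pathways could be followed. Of 28 listed Calvin cycle enzymes and regulators 2 had a probe of their own, SBPASE and PRK, and neither passed in either direction. Of 24 genes around pyruvate and phosphoenolpyruvate 2 had one, PPDK and AT5G58330, which encodes the chloroplast NADP-dependent malate dehydrogenase, another enzyme activated through thioredoxin. None of 8 genes of starch and sucrose synthesis and none of 10 of photorespiration had one. The deposited signal of AT5G58330 (NADP-MDH) was 2.61 to 3.10 in WT and 2.1 to 2.51 in aap6. The genotypes did not overlap, with aap6 lower, which held for 1.67% of probes tested. After quantile normalization its log2 change was -0.32 ± 0.16 (SE), which missed the threshold (limma adjusted p = 0.241). With the block of pairs it missed too (limma adjusted p = 0.170), where 18% of probes passed. As deposited it was -0.30 and missed (limma adjusted p = 0.214), where 34.9% of probes passed. Median centred it was -1.03 and passed (limma adjusted p = 0.00939), with 26.6% of probes called.

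The leaf cell markers also gave no call after quantile normalization. The photosystem I subunit PSAN had a log2 change of -0.39 ± 0.19 (SE), the light-harvesting protein LHB1B2 one of -0.10 ± 0.20 and the photosystem II subunit PSBW one of 0.18 ± 0.18, with limma adjusted p-values of 0.226, 0.782 and 0.562. As deposited the 3 changes were -0.49, -0.29 and -0.03, and none passed in limma, where 34.9% of probes did. Median centred they were -1.22, -1.02 and -0.76, and all 3 passed, in a setting that called 685 of 2579 probes (26.6%), 487 of them lower.

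Likeness was measured as the Pearson correlation of log2 normalized signal over the 12 arrays, among 492 other tested probes with 1 gene name. These points share genotype and array number, so the correlations only describe a common pattern. SBPASE was most like AT4G09620 (0.93), AT4G13200 (0.89) and AT2G34050 (0.88), against a median of 0.003 over all 492. None of these passed between genotypes in limma. PRK was most like AT4G14050 (0.89), AT2G39670 (0.79) and LHB1B2 (0.78), none of which passed. PPDK was most like AT5G56070 (0.85), AT1G76220 (0.82) and AT3G18870 (0.82). Of these AT3G18870 rose by 0.83 on the log2 scale (limma adjusted p = 0.0345) and the others did not pass. It was picked for its likeness to PPDK over the same 12 arrays, so its call is not independent of that choice. Of all probes tested 8.88% passed.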

How the data were processed

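The authors deposited a table of linear intensities, 1 value for each probe in 12 array samples, with background correction, scaling and array type not given in the sources used here. Columns were matched to samples by their identifiers. Of 3439 probes, 692 had 1 gene name in the platform annotation, 870 had several and 1877 were not listed. Gene identifiers were used to bring names up to date with the gene table of TAIR10.1.

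Intensities were quantile normalized, floored at 0.0505 (the 10th percentile among values above 0) and taken to log2. The floor of earlier work on these data was 0, which has no logarithm. The 25% of probes with the lowest mean were left out. Arrays 1 and 2, 3 and 4, and 5 and 6 were averaged per genotype, and limma 3.58.1 in R 4.3.3 was fitted to all 2579 probes, with Benjamini-Hochberg adjustment. The fit was tested on simulated data. The 3 within-array ratios were tested by exact permutation, two-sided.

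Deviations of same-numbered arrays from their genotype mean correlated across probes at 0.426 to 0.552, and those of same-numbered averaged pairs at 0.403 to 0.506. The numbers were therefore treated as pairing the samples, on the evidence of the data and not of the labels. The genes, lists and tests were chosen with earlier results of these data known. Besides the 3 genes, every listed gene with its own probe and the 3 probes most like each gene were named. The alternatives changed the scaling, the floor, the filter, the variance model or the block, or left out arrays.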

Additional observations from a re-analysis of the deposited data

How the results depend on the processing

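The combinations of scaling with a block, ranks within the array, other settings for the share of variation and leaving out arrays 1 and 2 of both genotypes were added once the data had been seen. The number of called probes, 229 (150 higher, 79 lower), became 900 as deposited (880 and 20), 685 median centred (198 and 487) and 489 by the 75th percentile (315 and 174). It was 783 over 12 arrays, 359 with the averaged pair as a random effect, 1046 with the numbers as a replicate block over 12 arrays and 464 with the block of 3 pairs. With that block it was 1211 as deposited and 1034 median centred. Leaving out arrays or pairs gave 57 to 211 calls, and 53 without arrays 1 and 2 of both genotypes. The count fell by over 1.5 times without WT array 1 (152), WT arrays 1 and 2 (142) or 3 and 4 (87), and without aap6 arrays 1 and 2 (77), 3 and 4 (57) or 5 and 6 (95).

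The PPDK change passed as deposited (1.53), by the 75th percentile (1.06), over 12 arrays (0.86), with either block (0.86), and with the block of pairs as deposited (1.53) or median centred (0.80). With the averaged pair as a random effect its limma adjusted p was 0.0837. It stayed above 0 in all 35 alternatives, and leaving out arrays or pairs gave 0.61 to 1.05, not called in any. The PRK change was -0.41 to -0.06 over the leave-outs, turned to 0.12 as deposited, with the block (0.12) and without it, and passed only with median centring and the block (-0.61). The SBPASE change passed in none of 34 alternatives. Its sign turned when the floor was the 25th percentile of the whole table (-0.018), and without aap6 array 1 (-0.11), WT arrays 1 and 2 (-0.80), aap6 arrays 3 and 4 (-0.17), aap6 arrays 5 and 6 (-0.33) or arrays 1 and 2 of both genotypes (-0.16), within a range of -0.80 to 0.78 (-0.11 to 0.26 without single arrays). It was not tested without a floor, where probes holding a logarithm of 0 were left out.

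The SBPASE share of variation between array numbers ran from 70.0% to 94.4% over 5 alternatives. The PPDK to PRK ratio passed only over 12 arrays (1.41, adjusted p = 0.00649 by exact permutation) and ran from 1.21 to 1.60 without single arrays. The leave-out ranges were 0.77 to 1.21 for PPDK to SBPASE and 0.23 to 0.60 for SBPASE to PRK, and the lowest floor tried (2nd percentile of values above 0) moved these ratios outside them, to 0.38 and 1.03. Quantile normalization gave 1.12, 0.78 and 0.34 for the 3 ratios. Sign flips within the 3 pairs, the replicate block of the ratios, gave exact p-values of 0.25, the smallest possible. The cause of these shifts was not tested, also where leaving out a pair of arrays leaves fewer samples. Values near the floor limit SBPASE.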
